A study of Homo sapiens with 12 samples.

Results

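The transcripts described here are the 3 NR4A nuclear receptors (NR4A1, NR4A2, NR4A3), the salt-inducible kinase SIK1, the cAMP-responsive transcription factors CREM and CREB1, and the cAMP phosphodiesterases PDE4B and PDE4D. The 8 genes were taken as a list of symbols, with no threshold on measured values, but with earlier results of these data known. All 8 were found among the 24180 symbols of every library, and all 8 passed the filter on low counts that left 15407 genes to test. The libraries are RNA-seq of 143B cells, an established human osteosarcoma line labelled wild type, in 4 groups of 3: NC (titled Control), BSG, M-BSG (titled 5-MNP-BSG) and M-BSG-Hot (titled 5-MNP-BSG (+)). A borosilicate bioactive glass and moderate magnetic hyperthermia are named in the title of the series. The same treatment text, naming the 5-MNP-BSG magnetothermal system and an alternating magnetic field (20A), stands on all 12 samples, controls included, so the labels do not tell what material or field each group received, at what dose or for how long. All cells were grown in DMEM with 10% FBS at 37 °C and 5% CO2. The labels do not describe the 3 libraries of a group as separate cultures; the p-values therefore measure only the spread between these libraries, which may be technical.

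Hormones and other ligands that act on receptors coupled to the stimulatory G protein raise cAMP, which activates protein kinase A; the kinase phosphorylates CREB1 at promoters that carry a cAMP response element, and coactivators of the CRTC family join it there. The NR4A genes are immediate-early genes of this pathway: they encode orphan nuclear receptors whose activity is set largely by how much of each is made, and in bone-forming cells they are known targets of parathyroid hormone. SIK1 and the short CREM product ICER are induced by the same signal and restrain it, SIK1 by phosphorylating the CRTC coactivators and ICER by occupying the response elements, while PDE4B and PDE4D hydrolyse cAMP. The same early genes also answer growth factors, calcium and cellular stress, so their transcripts do not identify the signal.

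Stretches before start sites of NR4A3, SIK1 and CREM are shown. That of CREM holds the full cAMP response element, and those of NR4A3 and SIK1 hold only its core TGACG. The stretches come from a set of RefSeq promoter windows on GRCh38.p14 and run 5′ to 3′ on the gene's strand. The set holds 7 of the 8 genes and lacks NR4A2, so the promoter of NR4A2 was not searched. The 250 bases before each start were searched on both strands for the full element TGACGTCA, for its core TGACG, which reads CGTCA on the other strand and which the full element holds on both, and for the AP-1 element TGACTCA, read on the other strand as TGAGTCA. Capitals mark the matches. NR4A3 (chr9:99821635-99821884, plus strand) has 4 cores, starting 109, 91, 83 and 25 bases before the start. SIK1 (chr21:43427132-43427381, minus strand) has 3, starting 217, 137 and 126 bases before it. CREM has 7 listed starts, and the full element stands before the last of them, 50 to 43 bases upstream. The 100 bases printed (chr10:35195770-35195869, plus strand) end 33 bases before that start. Another listed CREM start lies 52 bases before the last one. The element and the last 20 printed bases lie after that other start.
NR4A3: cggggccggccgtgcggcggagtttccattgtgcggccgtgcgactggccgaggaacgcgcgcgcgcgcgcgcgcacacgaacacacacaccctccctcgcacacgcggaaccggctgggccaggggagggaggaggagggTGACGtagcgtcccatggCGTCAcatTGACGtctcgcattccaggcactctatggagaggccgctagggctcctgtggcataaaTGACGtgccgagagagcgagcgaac
SIK1: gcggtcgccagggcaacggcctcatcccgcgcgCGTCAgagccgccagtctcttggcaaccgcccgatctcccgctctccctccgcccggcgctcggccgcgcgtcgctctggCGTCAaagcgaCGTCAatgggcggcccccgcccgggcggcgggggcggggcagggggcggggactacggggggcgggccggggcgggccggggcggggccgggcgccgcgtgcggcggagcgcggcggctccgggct
CREM: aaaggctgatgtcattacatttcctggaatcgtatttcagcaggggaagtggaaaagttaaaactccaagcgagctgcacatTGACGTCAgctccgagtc
Of all 35116 windows in the table, 1.65% hold the full element, 21.2% the core and 4.20% the AP-1 element. Counted by gene, 2.03% of 27305 genes have a window with the full element, 24.9% with the core and 5.19% with the AP-1 element. Another of the 7 CREM windows holds 2 cores, 1 of 8 PDE4D windows holds a core and 1 the AP-1 element. These CREM and PDE4D windows are not printed. None of the 3 motifs is found in the windows of NR4A1 (2), CREB1 (1) or PDE4B (6). A match describes letters only; no binding was measured here.

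Depth was even, with 34434993 to 38163152 counts per library, and every pair of replicates differed by more than counting noise. A share of 7.55% to 11.3% of counts came from 83 ribosomal protein genes. In BSG 1 (11.3%), M-BSG 1 (9.95%) and M-BSG-Hot 3 (9.86%) it was the highest of the group, and BSG 1 and M-BSG 1 stood apart from their replicates, with a chi-square of counts up to 65.4 per degree of freedom. These are called the 3 ribosome-rich libraries, and results are also given without them. Of 9 mesenchymal and bone-lineage markers found, 8 average at least 1 CPM (scaled counts, as below), VIM, SPARC, CD44 and RUNX2 among them, and THY1 has at most 1 count in a library. Summed endothelial markers reach 1.18 to 2.87 CPM. Epithelial markers sum to 13.9 to 22.3, nearly all EPCAM, while CDH1, KRT5 and KRT19 average below 1. Immune markers sum to 120 to 166, nearly all CD68, a lysosomal protein gene also read in other cells; LYZ averages below 1.

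In BSG the 3 NR4A receptors and SIK1 rose against NC, and fewer of these 4 genes passed the test in M-BSG and M-BSG-Hot; the other 4 genes did not pass it in any of the 3 groups. Levels are counts brought to the same library total after TMM scaling (CPM), and changes are log2 ratios with a standard error (SE) and a Benjamini-Hochberg adjusted p over all 15407 genes from edgeR's quasi-likelihood test; a gene is called at an adjusted p under 0.05. In BSG, 4 of 8 genes were called higher (NR4A1, NR4A2, NR4A3 and SIK1) and 0 lower, where 5.50% of all genes tested were called higher and 11.7% in either direction. In M-BSG, NR4A2, NR4A3 and SIK1 were called higher (3 of 8; 3.22% of all genes higher, 6.35% in either direction). In M-BSG-Hot NR4A2 alone was called higher (1 of 8; 1.40% higher, 4.91% in either direction). The median log2 change of the 8 genes was 0.36 in BSG, 0.21 in M-BSG and 0.26 in M-BSG-Hot, beside -0.02, -0.01 and 0.00 over all genes. Every library of the treated group lay above every NC library for 4 of 8 genes in each of these comparisons, where the groups did not overlap, in either direction, for 38.7%, 27.5% and 28.0% of all genes in the same order. The 4 were NR4A1, NR4A2, NR4A3 and SIK1 in BSG and in M-BSG. In M-BSG-Hot they were NR4A1, NR4A2, SIK1 and PDE4B. In bulk RNA, a change in the number of responding cells and a change in RNA per cell cannot be told apart.

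**Figure D1:**
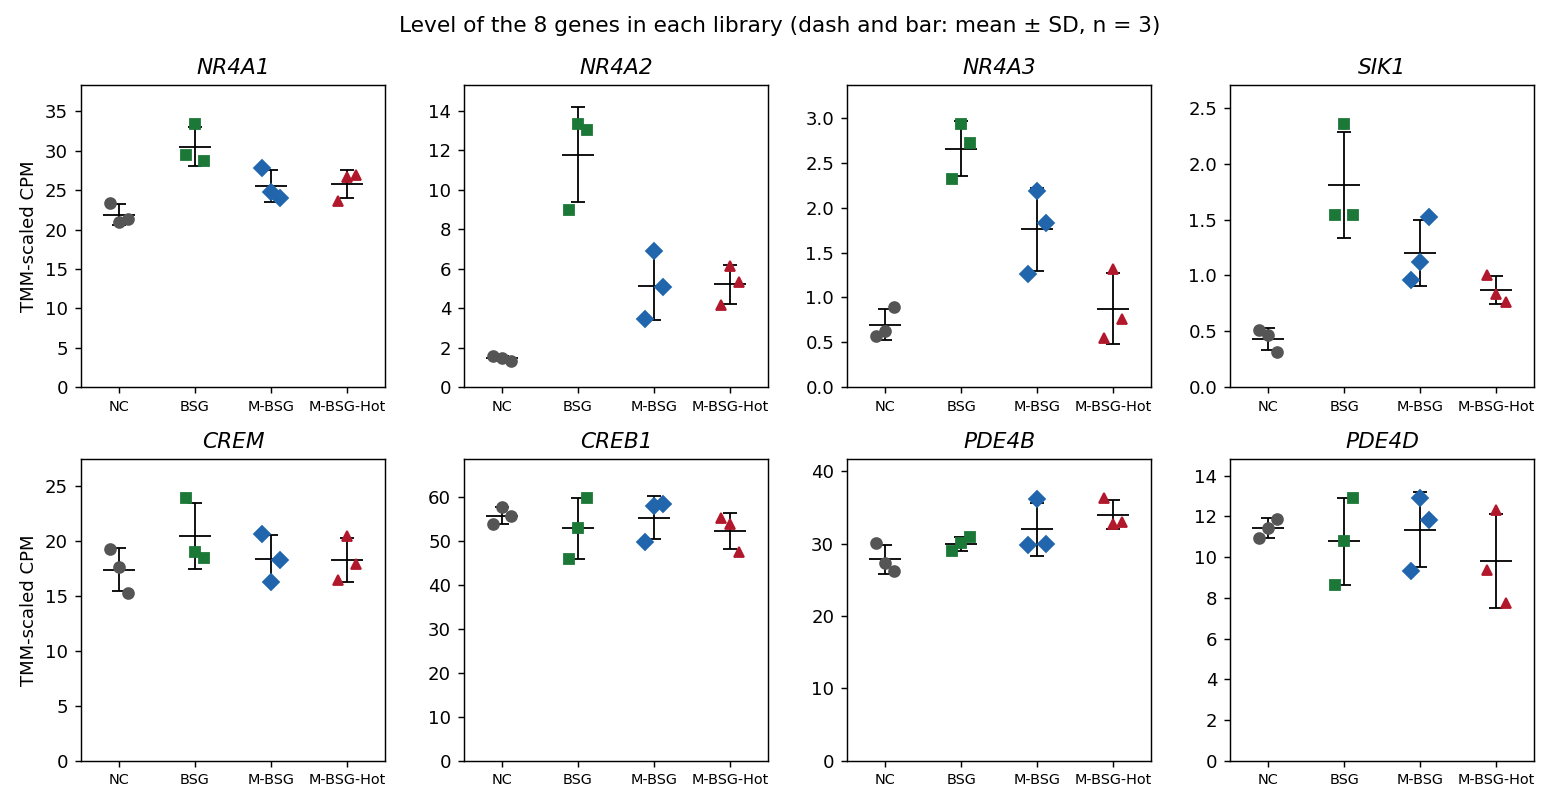
TMM-scaled CPM (linear axes from 0) of each of the 8 genes in the 12 libraries, 1 point per library, by group, with the mean and SD of 3 libraries as dash and bar. NR4A1, NR4A2, NR4A3, SIK1 and CREM have their lowest mean in NC and their highest in BSG, and the groups of CREM, CREB1 and PDE4D overlap.

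NR4A2 (NURR1), a receptor best known for its part in dopaminergic neurons and also described in bone cells, had the largest log2 change of the 8 genes in each comparison with NC. Its NC levels were 1.59, 1.45 and 1.34 CPM, and BSG gave 8.98, 13.3 and 13.0. The M-BSG libraries held 3.45, 6.90 and 5.07 CPM, those of M-BSG-Hot 4.16, 6.14 and 5.32. All 9 treated libraries thus lay above the 3 of NC, and the 3 BSG libraries lay above the other 6. The NC mean was 1.46 ± 0.124 CPM, against 11.8 ± 2.42 for BSG, 5.14 ± 1.73 for M-BSG and 5.21 ± 0.998 for M-BSG-Hot (SD, n = 3 each), from 51 to 56 counts per NC library and 321 to 509 per BSG library.

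Relative to NC, NR4A2 was 8.05-fold higher in BSG (approximate 95% interval, as all intervals here, 5.51 to 11.8; log2 3.01, SE 0.254, edgeR adjusted p = 3.78e-06). The rise was 3.52-fold in M-BSG (2.40 to 5.16; log2 1.82, SE 0.258, edgeR adjusted p = 0.000582) and 3.56-fold in M-BSG-Hot (2.43 to 5.23; log2 1.83, SE 0.257, edgeR adjusted p = 0.000697). Each of the 3 calls held in all alternatives run, and without the 3 ribosome-rich libraries the log2 changes were 3.16, 2.03 and 1.82.

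NR4A3 (NOR1), the receptor gene involved in the fusions of extraskeletal myxoid chondrosarcoma, was scarce in NC, at 0.567, 0.623 and 0.894 CPM (20 to 34 counts). It stood at 2.32, 2.93 and 2.72 CPM in BSG, and at 1.26, 2.18 and 1.83 in M-BSG. In M-BSG-Hot it was at 0.544, 1.31 and 0.760 CPM. The BSG and M-BSG libraries lay above NC and did not overlap each other, whereas M-BSG-Hot overlapped NC.

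For NR4A3, the change in BSG was a 3.81-fold rise (2.36 to 6.15; log2 1.93, SE 0.322, edgeR adjusted p = 0.00153), a call that held in all alternatives that kept the gene. In M-BSG it rose 2.52-fold (1.55 to 4.10; log2 1.33, SE 0.327, edgeR adjusted p = 0.0254), and this call was lost without NC 1, NC 2, M-BSG 2 or M-BSG 3 (edgeR adjusted p 0.109, 0.107, 0.100 and 0.0792). In M-BSG-Hot the log2 difference from NC was 0.33 (-0.41 to 1.07, edgeR adjusted p = 0.676), and it was -0.08 without M-BSG-Hot 2. Without the 3 ribosome-rich libraries the BSG and M-BSG changes were 2.01 and 1.52.

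NR4A1 (NUR77), the founding member of the family, had the highest level of the 3 receptors, per length as well, and the smallest change in BSG. It was at 23.4, 20.9 and 21.4 CPM in NC and 29.5, 33.4 and 28.7 in BSG. M-BSG gave 27.8, 24.7 and 24.1 CPM, and M-BSG-Hot 23.7, 26.6 and 26.9. All treated libraries lay above NC, the lowest of M-BSG-Hot (23.7 CPM) only just above the highest of NC (23.4), and the BSG libraries lay above all others.

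NR4A1 rose 1.39-fold in BSG (1.21 to 1.60; log2 0.48, SE 0.0934, edgeR adjusted p = 0.00449), in every alternative. The log2 differences of 0.22 in M-BSG and 0.23 in M-BSG-Hot (SE 0.0936 and 0.0935) were not called, at edgeR adjusted p values of 0.213 and 0.209. Its antisense partner NR4A1AS had 0 or 1 count per library. The use of strand in the counting was not given, so this does not tell whether antisense reads entered the NR4A1 count.

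SIK1, the kinase that damps CRTC-driven transcription, had the lowest level per length of the 8 genes in NC. Its levels were 0.511, 0.467 and 0.316 CPM in NC (12 to 18 counts) and 1.54, 2.35 and 1.54 in BSG. M-BSG libraries held 0.958, 1.12 and 1.53 CPM, and M-BSG-Hot 1.01, 0.832 and 0.760. All 9 treated libraries lay above the 3 of NC. The human genome holds a near-identical copy, SIK1B, which is not among the 24180 symbols of the libraries. SIK1 values are therefore uncertain to the extent that reads are shared.

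SIK1 rose 4.19-fold in BSG (2.65 to 6.60; log2 2.07, SE 0.306, edgeR adjusted p = 0.000630), in all alternatives that kept the gene. It rose 2.78-fold in M-BSG (1.74 to 4.43; log2 1.47, SE 0.313, edgeR adjusted p = 0.0109), a call lost without NC 3 or M-BSG 3 (edgeR adjusted p 0.0656 and 0.0611). In M-BSG-Hot the log2 difference was 1.00 (0.32 to 1.69, edgeR adjusted p = 0.103). It passed the test there only in the fit with the ribosomal protein share as a covariate (log2 1.12, edgeR adjusted p = 0.0303). Without the 3 ribosome-rich libraries the 3 changes were 2.16, 1.61 and 1.09, the last again not called.

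CREM encodes activators and, from an internal promoter, the repressor ICER; the gene-level count does not separate them. Its levels were 19.3, 17.7 and 15.3 CPM in NC and 23.9, 19.0 and 18.5 in BSG, with overlap. M-BSG held 20.6, 16.3 and 18.3 CPM, and M-BSG-Hot 16.5, 20.5 and 17.9. The log2 difference between BSG and NC was 0.23 (-0.05 to 0.51, edgeR adjusted p = 0.241). With the replicate number as a block and only NC, BSG and M-BSG in the fit it was 0.24 with an edgeR adjusted p of 0.0483, and without the 3 ribosome-rich libraries it was 0.10. In M-BSG and M-BSG-Hot the intervals were -0.20 to 0.36 and -0.21 to 0.35.

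CREB1, the factor itself, is regulated mainly by phosphorylation, which RNA-seq does not read. NC libraries held 53.7, 57.6 and 55.7 CPM and BSG libraries 45.8, 52.9 and 59.7. The M-BSG values were 49.6, 57.8 and 58.3 CPM, and the M-BSG-Hot values 55.0, 53.9 and 47.4. The groups overlapped. Log2 differences from NC were -0.08 (-0.30 to 0.14), -0.01 (-0.23 to 0.21) and -0.10 (-0.31 to 0.12) for BSG, M-BSG and M-BSG-Hot, and none was called.

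PDE4B, whose short forms are cAMP-inducible in several cell types, had 30.1, 27.3 and 26.2 CPM in NC and 36.3, 32.8 and 32.9 in M-BSG-Hot, which did not overlap. BSG (28.9, 30.1 and 30.9 CPM) and M-BSG (29.8, 36.2 and 29.9) overlapped NC. The log2 difference between M-BSG-Hot and NC was 0.29 (0.09 to 0.49, edgeR adjusted p = 0.107) and was not called. It was called by DESeq2 (adjusted p = 0.0487), with the ribosomal protein share as a covariate (edgeR adjusted p = 0.00440) and without the 3 ribosome-rich libraries (log2 0.31, edgeR adjusted p = 0.0327). In BSG and M-BSG the differences were 0.11 (-0.09 to 0.31) and 0.20 (0.00 to 0.40), the latter called only with that covariate (edgeR adjusted p = 0.0393).

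PDE4D, the other phosphodiesterase, had NC levels of 10.9, 11.5 and 11.9 CPM and BSG levels of 8.62, 10.8 and 12.9. Its levels were 9.31, 12.9 and 11.8 CPM in M-BSG, with 9.38, 12.3 and 7.77 in M-BSG-Hot. The NC libraries lay inside the range of BSG and of M-BSG. Its log2 differences from NC were -0.09 (-0.47 to 0.30), -0.01 (-0.39 to 0.37) and -0.22 (-0.60 to 0.16), and none was called in any alternative.

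**Figure D2:**
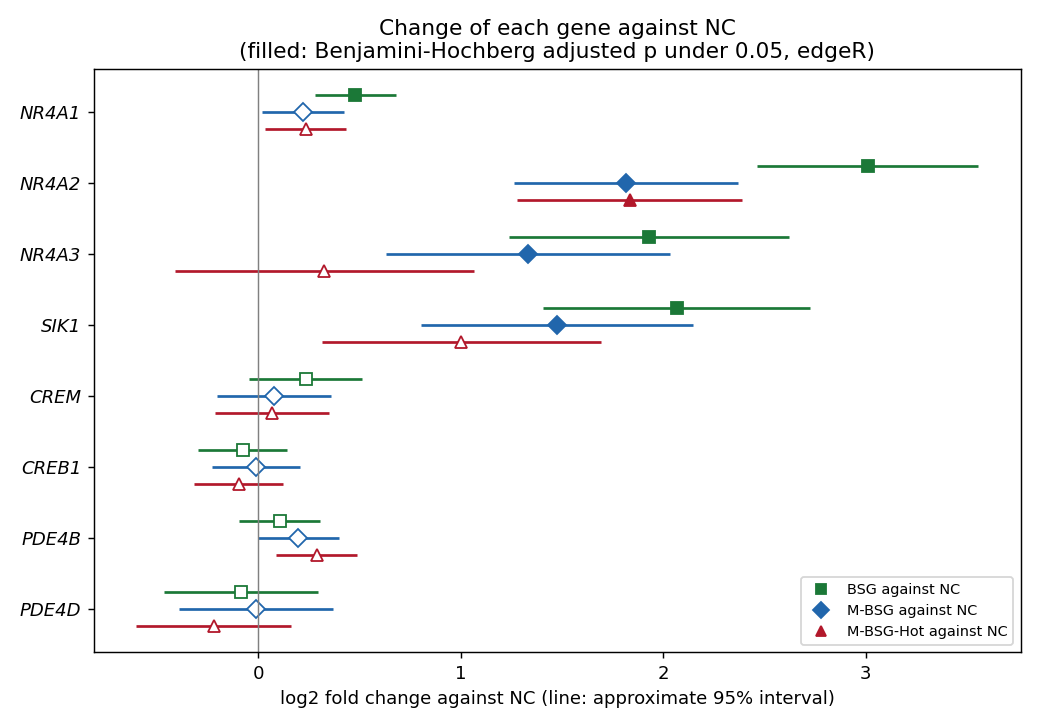
Log2 fold change of each gene against NC in BSG, M-BSG and M-BSG-Hot, with its approximate 95% interval as a line (edgeR fit of 12 libraries); filled symbols mark an adjusted p under 0.05. NR4A2 lies farthest from 0 in each of the 3 comparisons, and the intervals of CREM, CREB1 and PDE4D include 0.

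Per length, as FPKM, the mean NC levels ran from PDE4B at 4.68 and CREB1 at 4.52 through NR4A1 at 2.82, CREM at 2.58, PDE4D at 0.611 and NR4A2 at 0.428 to NR4A3 at 0.100 and SIK1 at 0.0940. Among the 21077 genes above 0 FPKM in NC, PDE4B lay at percentile 63.7, NR4A1 at 56.2, NR4A2 at 38.8 and SIK1 at 27.6. In BSG the mean FPKM of NR4A2 was 3.28, beside 3.73 for NR4A1 and 2.87 for CREM. NR4A3 and SIK1 reached 0.364 and 0.376 FPKM there, so the receptors and the kinase with the large fold changes, other than NR4A2, remained below PDE4D (0.546 FPKM in BSG).

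Between M-BSG and BSG, which share the material's name in part, 0 of 8 genes were called (0.130% of all genes tested were called, in either direction). NR4A1, NR4A2, NR4A3 and SIK1 had all M-BSG libraries below all BSG libraries (4 of 8, where 8.89% of all genes had groups that did not overlap, in either direction), SIK1 by the narrow gap between 1.53 and 1.54 CPM. NR4A2 had a log2 difference of -1.19 (-1.68 to -0.71, SE 0.225, edgeR adjusted p = 0.0670). With the replicate number as a block it was -1.21 (edgeR adjusted p = 0.0146), and with the block and only NC, BSG and M-BSG in the fit, -1.21 (edgeR adjusted p = 0.000484). It was called in 8 of 23 alternatives in all, among them DESeq2 (adjusted p = 0.000294) and the fits without the 3 ribosome-rich libraries (-1.13, edgeR adjusted p = 0.00649), without BSG 1 (edgeR adjusted p = 0.0292) and without M-BSG 2 (edgeR adjusted p = 0.0345). The differences of NR4A1, NR4A3 and SIK1 were -0.26, -0.60 and -0.59, each at an edgeR adjusted p of 0.635.

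M-BSG-Hot and M-BSG, whose titles differ by the plus sign, also showed 0 of 8 genes called, in a comparison where 0.694% of all genes were. NR4A2 differed by 0.02 on the log2 scale, with an interval from -0.48 to 0.51, and NR4A1 by 0.01 (-0.19 to 0.21). NR4A3 had the widest gap, at -1.01 (-1.69 to -0.32, edgeR adjusted p = 0.276), and its libraries overlapped: M-BSG-Hot 2, at 1.31 CPM, lay just above M-BSG 1, at 1.26. SIK1 differed by -0.47 (-1.09 to 0.15). No gene of the 8 had groups that did not overlap, against 13.8% of all genes.

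M-BSG-Hot against BSG gave 2 of 8 genes called lower and 0 higher, where 0.753% of all genes were called lower and 0.850% in either direction. NR4A2 fell by 1.18 on the log2 scale (-1.66 to -0.69, SE 0.225, edgeR adjusted p = 0.0266). Its call was lost without BSG 2, BSG 3, M-BSG-Hot 1 or M-BSG-Hot 3 (edgeR adjusted p 0.0894, 0.100, 0.142 and 0.0830). NR4A3 fell by 1.60 (-2.28 to -0.93, SE 0.314, edgeR adjusted p = 0.0284). That call was lost in the fit of only these groups (edgeR adjusted p = 0.0639) and without BSG 2, BSG 3, M-BSG 3, M-BSG-Hot 1 or M-BSG-Hot 3 (edgeR adjusted p from 0.0511 to 0.134). Without the 3 ribosome-rich libraries the changes were -1.35 (edgeR adjusted p = 0.000354) and -1.59 (edgeR adjusted p = 0.0264). SIK1 differed by -1.06 (edgeR adjusted p = 0.123; called by DESeq2 at 0.0284 and with the ribosomal share as a covariate at 0.0191) and NR4A1 by -0.25 (edgeR adjusted p = 0.265). These 4 genes lay lower in every M-BSG-Hot library than in any BSG library and PDE4B lay higher, 5 of 8 where 16.7% of all genes did not overlap.

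The order of the group means was BSG, M-BSG-Hot, M-BSG, NC for NR4A1 and NR4A2, and BSG, M-BSG, M-BSG-Hot, NC for NR4A3 and SIK1. For NR4A2 the steps from BSG to M-BSG-Hot and from M-BSG to NC were called, and that between M-BSG-Hot and M-BSG was not. For the other 3 no step between neighbours was called. The comparisons with NC share the same 3 control libraries, and those with BSG the same 3 BSG libraries, so their values are not independent of each other.

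Within groups, some of the 8 genes moved with the ribosomal protein share of the library. CREB1 and PDE4D, with the longest gene models of the 8 (12759 and 19393 bases), had their lowest CPM in the library with the highest share in 4 of 4 groups, and NR4A3 in 3 of 4. CREM and NR4A1 had their highest CPM in that library in 3 of 4 groups. NR4A2, SIK1 and PDE4B were lowest there in 2 groups and highest in 1. In BSG 1, with a share of 11.3%, NR4A2 was at 8.98 CPM, below 13.3 and 13.0 in BSG 2 and 3, whose shares were 8.41% and 9.18%. In M-BSG 1 (9.95%) it was at 3.45, below 6.90 and 5.07 at shares of 7.55% and 8.13%. With the share as a covariate the NR4A2 changes against NC were 3.27 in BSG, 1.88 in M-BSG and 1.98 in M-BSG-Hot, and the differences of CREB1 and PDE4D between BSG and NC, neither of them called, turned from -0.08 and -0.09 to 0.08 and 0.16. The part of this share in the results was not tested beyond that fit.

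**Figure D3:**
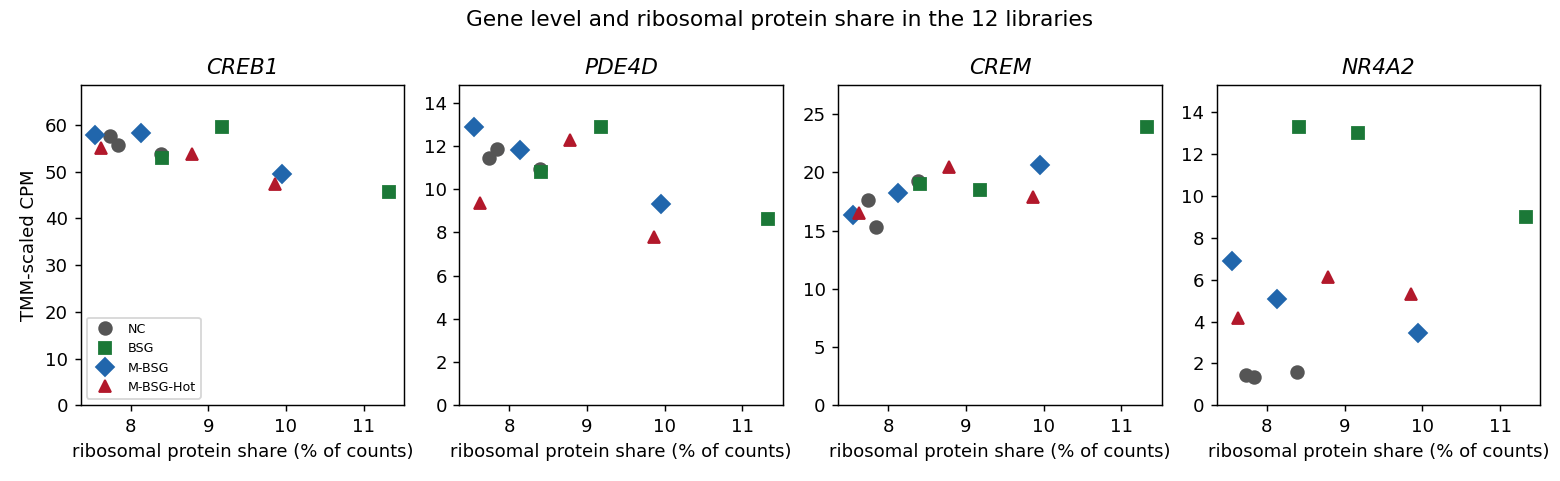
TMM-scaled CPM of CREB1, PDE4D, CREM and NR4A2 (linear axes from 0) against the share of counts from ribosomal protein genes (%), 1 point per library, with a symbol and colour for each group. In each group CREB1 and PDE4D are lowest at the highest share, and NR4A2 is lower in NC than in any treated library.

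The genes whose changes were most like those of each called member were found from the root mean square difference of log2 changes from NC over the 9 treated libraries, as a description, for genes that averaged 1 CPM or more. HSPA2 (0.342), RGS2 (0.463) and PCDH10 (0.493) came nearest to NR4A2. HSPA2, a heat shock protein 70 gene known from the testis, went from 10.3 ± 0.903 CPM in NC to 61.0 ± 6.21, 40.5 ± 3.67 and 34.6 ± 4.32 for BSG, M-BSG and M-BSG-Hot (SD, n = 3). RGS2, a regulator of G protein signalling and itself on the list of CREB targets below, had 7.72 ± 0.501, 43.5 ± 2.57, 21.3 ± 2.23 and 26.6 ± 3.12 CPM in the same order.

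Nearest to NR4A3 were CD14 (0.400), ZC3H12A (0.405) and MIR22HG (0.424). CD14, a coreceptor for lipopolysaccharide and also an immune marker, was at 0.539 ± 0.151, 1.80 ± 0.139, 1.13 ± 0.188 and 0.613 ± 0.131 CPM in NC, BSG, M-BSG and M-BSG-Hot, while CD68 was at 141, 133, 136 and 142 CPM. ZC3H12A, an RNase that degrades inflammatory transcripts, went from 6.31 ± 1.14 CPM to 18.9 ± 3.40, 17.6 ± 2.18 and 9.74 ± 1.05. For SIK1 they were AQP3 (0.260), LOC107986196 (0.285) and ADM (0.307). ADM, which encodes the peptide adrenomedullin, stood at 28.9 ± 2.26, 91.4 ± 2.07, 74.3 ± 6.22 and 52.4 ± 2.66 CPM. For NR4A1, whose changes are small, ORC5 (0.107), C2orf76 (0.108) and HEY1 (0.110) came nearest, a measure that small changes bring close to 0 for many genes.

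The rest of the pathway was read from 8 lists of 102 genes, of which 85 were tested. Against NC, BSG had 13 called higher and 3 lower, M-BSG 15 higher and 0 lower, and M-BSG-Hot 11 higher and 0 lower, with most of the higher calls among the target genes. These are 18.8%, 17.6% and 12.9% of the 85 genes called in either direction, where 11.7%, 6.35% and 4.91% of all genes tested were. Among 9 tested receptors that couple to the stimulatory G protein, PTGER4 rose in each of the 3 comparisons with NC. PTGER4, a prostaglandin E2 receptor, went from 5.46 CPM to 9.36, 12.3 and 8.73 (log2 0.78, 1.17 and 0.68, edgeR adjusted p = 0.00203, 9.12e-05 and 0.00915, the last lost without NC 2 at 0.0527). ADRB1 fell by 0.60 in BSG (edgeR adjusted p = 0.0241), a call lost without NC 1, NC 2, BSG 2 or BSG 3 (edgeR adjusted p from 0.0509 to 0.0972).

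Between the receptors and CREB few genes passed the test. Of 7 genes for the stimulatory G protein and adenylyl cyclases, the cyclase ADCY9 fell by 0.50 in BSG (27.0 to 19.1 CPM, edgeR adjusted p = 0.0300), a call lost without NC 2, NC 3, BSG 1 or BSG 3 and with the ribosomal covariate (edgeR adjusted p from 0.0559 to 0.111). None of 11 genes for protein kinase A, its inhibitors and the EPAC factors was called against NC; the regulatory subunit PRKAR1A had 155 CPM in NC and 132 in BSG (log2 -0.24, SE 0.122, edgeR adjusted p = 0.204). Of 10 A-kinase anchoring proteins, AKAP8, a nuclear one, rose by 0.40 in BSG and 0.42 in M-BSG (edgeR adjusted p = 0.00516 and 0.00495). None of 11 other cAMP phosphodiesterases was called; PDE8A had 44.0 CPM in NC and 46.2, 48.6 and 49.0 in the treated groups.

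The next list held 12 CREB relatives, coactivators, other salt-inducible kinases and class IIa histone deacetylases. Of these, the coactivator CRTC1 fell by 0.63 in BSG (8.55 to 5.53 CPM, edgeR adjusted p = 0.0126, lost without NC 3 at 0.0624). Its relative CRTC2 rose by 0.24 in M-BSG (60.8 to 72.0 CPM, edgeR adjusted p = 0.0463), a call lost in 12 of 23 alternatives, among them the replicate block (edgeR adjusted p = 0.0655) and the fit without any 1 of the NC or M-BSG libraries (0.0643 to 0.184). A further list held retinoid X receptors, which pair with NR4A proteins, and MEF2 factors with their corepressor. None of its 6 tested genes was called. RXRB, a retinoid X receptor, had 50.9 CPM in NC and 49.2, 47.6 and 50.8 in the treated groups.

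Of 19 other textbook CREB target genes tested, 10 rose in BSG, 11 in M-BSG and 9 in M-BSG-Hot, and 0 fell, where 5.50%, 3.22% and 1.40% of all genes tested were called higher. Their median log2 change was 0.60, 0.69 and 0.18, beside -0.02, -0.01 and 0.00 over all genes tested. The list was chosen with earlier results of these data known, so these counts and medians are a description. FOS, FOSB, EGR1, JUNB, DUSP1, PTGS2, ATF3, GEM and RGS2 rose in all 3 groups, and many of them are also targets of serum response factor or of stress kinases. FOS, the AP-1 subunit, had a log2 change of 6.12, 5.81 and 5.11 and FOSB of 5.50, 5.20 and 3.68, larger than the 3.01, 1.82 and 1.83 of NR4A2. The call of PER1 in M-BSG was lost without NC 1, NC 2 or M-BSG 2 (edgeR adjusted p from 0.0608 to 0.0650). In M-BSG-Hot the calls of JUNB and PTGS2 were lost without NC 2 (0.0554 and 0.0666), that of GEM without NC 1, NC 2 or M-BSG-Hot 3 (0.0558 to 0.0867), and that of DUSP1 in 6 of 22 alternatives, with each NC library left out among them (0.0630 to 0.153).

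In M-BSG against BSG, RGS2 was the 1 of 19 targets called (0.130% of all genes tested were), at -1.03 (SE 0.105, edgeR adjusted p = 0.00138). In M-BSG-Hot against M-BSG, 4 of 19 targets were called (0.694% of all genes tested were). FOSB and EGR1 were lower (-1.52 and -1.34, edgeR adjusted p = 0.00773 and 0.00767, each lost at 0.0627 in the fit of only these groups), as were FOS and MCL1, whose calls were lost in 11 and 3 of 22 alternatives, M-BSG 3 or M-BSG-Hot 1 left out among them; RGS2 and NR4A2 were not called. In M-BSG-Hot against BSG, 7 of 19 targets were lower, FOS, FOSB, JUNB, EGR1, GEM, RGS2 and MCL1, where 0.753% of all genes tested were called lower. The calls of JUNB, EGR1 and MCL1 were lost in 12, 3 and 8 of 22 alternatives, each of them without BSG 2 or BSG 3 (edgeR adjusted p from 0.0646 to 0.110).

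**Figure D4:**
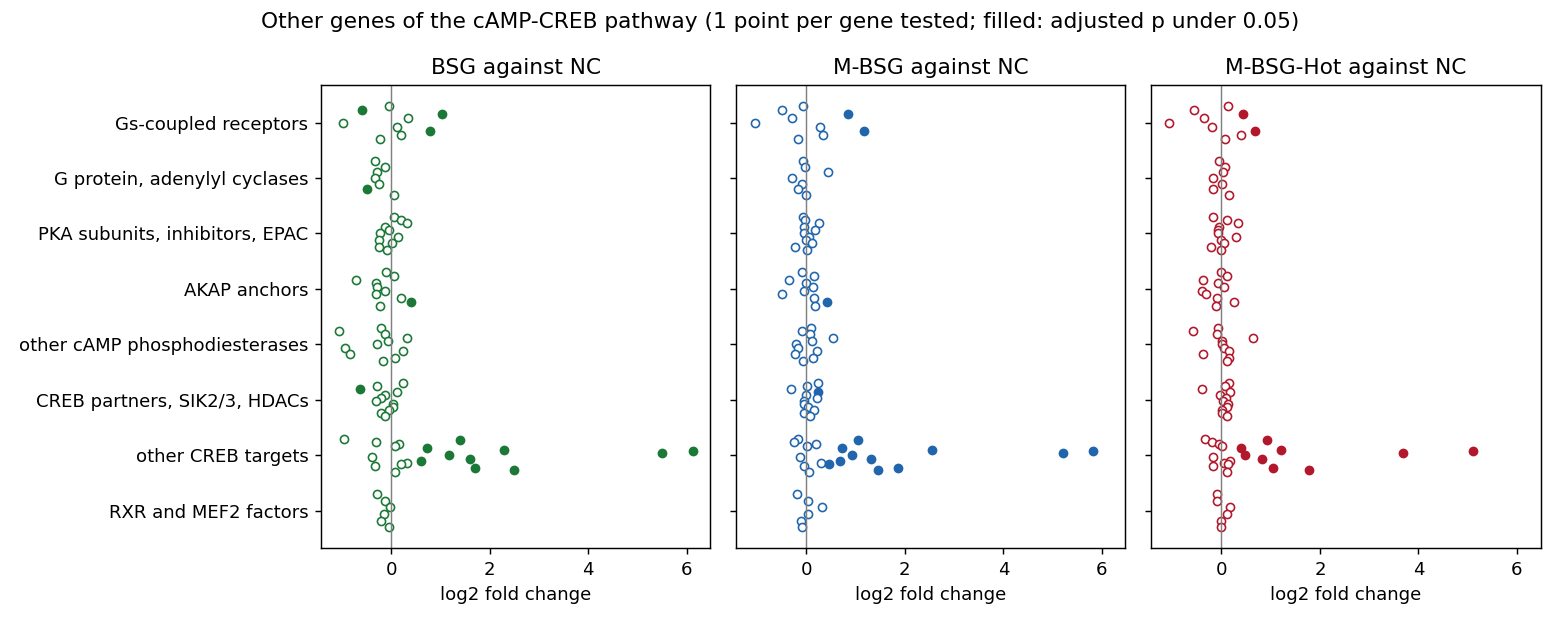
Log2 fold change against NC of the 85 tested genes of the 8 pathway lists in BSG, M-BSG and M-BSG-Hot, 1 point per gene, spread vertically within a list for legibility; filled points mark an adjusted p under 0.05. Most calls lie among the other CREB targets, with FOS and FOSB farthest to the right. The lists for protein kinase A, other phosphodiesterases, and RXR and MEF2 factors hold no filled point.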

How the data were processed

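The authors deposited, for each of 12 libraries, a table of counts per gene symbol (whole numbers, not normalised) and a table of FPKM. The deposited FPKM values equal the count over gene length and library total for 100% of values above 0, within a relative tolerance of 1e-06. Per the labels' protocols, RNA was extracted with an RNeasy kit and libraries were made with a SMARTER mRNA-Seq kit; the aligner, counter and use of strand were not given in the sources used here. Assemblies in the submitters' processing notes are GRCm38 and mm10, both mouse, while the symbols are human, so coordinates are given only for RefSeq promoter windows. One edgeR 4.0.16 fit in R 4.3.3 (TMM, filterByExpr with a minimum count of 10, quasi-likelihood, 1 mean per group, all 12 libraries) gave 6 comparisons, with Benjamini-Hochberg values over 15407 genes. The standard error is the log2 change over the root of the F statistic. With 3 libraries a group a permutation test cannot go below p = 0.1, so none was run. DESeq2 1.42.0, limma 3.58.1, other scalings, filters, covariates and libraries were alternatives; scripts were tested on simulated data.

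The 8 genes and all lists were chosen with earlier results of these data known. Pathway genes named are up to 4 per list with the smallest adjusted p among called genes whose groups did not overlap, or the highest FPKM where none was called; JUNB, PER1, DUSP1, PTGS2, ATF3, GEM and MCL1 are named as members of a count. Same-numbered libraries of NC, BSG and M-BSG deviated together, with all 9 correlations of deviations over 0.1 (lowest 0.147). The labels state no pairing. Differently numbered pairs of libraries 2 and 3 in these groups were also over 0.1, and NC 3 correlated with M-BSG 2 at 0.425, beside 0.147 with M-BSG 3. Library 1 had the highest ribosomal protein share in each of these groups. M-BSG-Hot 3, with the highest share in its group, correlated with BSG 1 and M-BSG 1 at 0.623 and 0.656. The part of that share in the correlations was not tested. Blocked values stand beside results whose call they change. Some genes of the lists are counted in them and not reported here by name.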

Additional observations from a re-analysis of the deposited data

How the results depend on the processing

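Of 1068 values of the 8 genes under alternatives, 982 kept direction and side of the threshold, 16 lost and 16 gained a call, and 54 changed sign, none of these called on either side; the cause was not tested, except that fewer genes or libraries enter some fits. The strict filter, at least 5 CPM in 3 libraries, drops SIK1 and NR4A3 and leaves 2 of the 8 genes called in BSG and 1 in M-BSG against NC, and 1 in M-BSG-Hot against BSG. Other counts of the 8 that moved by more than 1.5 times were 2 (DESeq2), 3 (ribosomal covariate) and 2 (without the 3 ribosome-rich libraries) in M-BSG-Hot against NC, 1 in M-BSG against BSG under each of DESeq2, no count filter, both replicate blocks, the covariate and those 3 libraries left out, and 1 in M-BSG-Hot against BSG in the fit of only these groups. Smaller moves were from 4 to 5 in BSG against NC (block on 9 libraries), from 3 to 4 in M-BSG against NC (covariate) and from 2 to 3 in M-BSG-Hot against BSG (DESeq2 and covariate). Leaving out 1 library gave 1 to 3 in M-BSG against NC, 0 to 1 in M-BSG against BSG and 0 to 2 in M-BSG-Hot against BSG. The covariate and the block on 9 libraries were chosen after seeing the data. The planned sum of SIK1 and SIK1B could not be run, as SIK1B is not among the symbols.

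Over all genes, BSG against NC had 1806 called (DESeq2 2810; leaving out 1 library 857 to 2556). M-BSG against NC had 979 (covariate 2760; without the 3 libraries 1972; leaving out 1 543 to 1210). M-BSG-Hot against NC had 756 (DESeq2 1161, strict filter 496, covariate 2108, without the 3 libraries 1313, leaving out 1 388 to 958). M-BSG against BSG had 20 (DESeq2 50, no filter 38, strict filter 11, covariate 62, without the 3 libraries 111, leaving out 1 3 to 27). M-BSG-Hot against M-BSG had 107 (DESeq2 276, covariate 840, only these groups 10, without the 3 libraries 275, leaving out 1 25 to 143). M-BSG-Hot against BSG had 131 (DESeq2 391, strict filter 87, covariate 859, only these groups 63, without the 3 libraries 260, leaving out 1 51 to 163).

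The replicate block on NC, BSG and M-BSG alone raised these counts to 5169, 2076 and 608 for BSG against NC, M-BSG against NC and M-BSG against BSG. Among the 8 genes a block changed the calls of NR4A2 in M-BSG against BSG and of CREM in BSG against NC, and no other. With M-BSG-Hot, 6 of 9 same-numbered correlations were below 0, those of M-BSG-Hot 2 not among them. Over all groups, 5 of 12 libraries correlated best with their own number. These correlations cannot tell whether the numbers pair M-BSG-Hot with the other groups, because the part of the ribosomal protein share was not tested.

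Signs changed as follows, on the log2 scale. With the ribosomal covariate, CREB1 was 0.080 in BSG and 0.040 in M-BSG against NC and -0.040 in M-BSG against BSG; PDE4D was 0.16, 0.062 and -0.094 in the same comparisons; and CREM was -0.017 in M-BSG-Hot against NC. Without the 3 ribosome-rich libraries, CREB1 was 0.0061 and 0.058 and PDE4D 0.041 and 0.11 in BSG and M-BSG against NC, CREM was -0.012 in M-BSG against NC and 0.096 in M-BSG-Hot against M-BSG, and NR4A2 was -0.22 in the latter. In M-BSG against NC, CREB1 was 0.00098 with median-ratio factors in edgeR, 0.00097 by DESeq2 and 0.0013 in the fit of only these groups, and PDE4D was 0.00083, 0.00083 and 0.0010. Leaving out 1 library gave CREB1 -0.17 to 0.024 and PDE4D -0.23 to 0.059 in BSG against NC. For M-BSG against NC it gave CREM -0.0046 to 0.16, CREB1 -0.051 to 0.070 and PDE4D -0.11 to 0.12, and for M-BSG-Hot against NC NR4A3 -0.083 to 0.58 and CREM -0.013 to 0.15. For M-BSG against BSG the ranges were -0.023 to 0.16 for CREB1, -0.0052 to 0.14 for PDE4B and -0.059 to 0.22 for PDE4D. For M-BSG-Hot against M-BSG they were -0.029 to 0.079 for NR4A1, -0.20 to 0.29 for NR4A2 and -0.098 to 0.081 for CREM, and against BSG -0.11 to 0.080 for CREB1 and -0.33 to 0.016 for PDE4D. At 12 to 34 counts per NC library, depth limits SIK1 and NR4A3 most.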
